A study of Rattus norvegicus with 31 samples.

Results

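Glutathione S-transferases (GSTs) were followed at the mRNA level in livers of 31 female rats. They were chosen by gene symbol, as 9 named genes: the alpha class genes Gsta2 and Gsta4, the mu class genes Gstm1 and Gstm2, the pi class gene Gstp1, the theta class genes Gstt1 and Gstt2, the mitochondrial kappa class gene Gstk1 and the microsomal gene Mgst1. Of these, 8 had a row of that spelling among the 26312 genes of the count table, and all 8 were among the 19904 genes tested. No row was spelled Gstt2. A row spelled GSTT2 (ENSRNOG00000028188) is given beside the members but was not counted with them.

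The rats were young adult Wistar rats (Crl:WI), gavaged daily for 28 days, and only the high dose groups were sequenced. The 8 controls received the vehicle, 0.5% aqueous carboxymethyl-cellulose, which all groups shared. The single compounds were thiacloprid (THI, a neonicotinoid insecticide) at 108 mg/kg bw/day in 4 rats, imazalil (IMZ, an azole fungicide) at 93 mg/kg bw/day in 4 rats, and clothianidin (CTD, a second neonicotinoid) at 288 mg/kg bw/day in 3 rats. The mixtures, in 4 rats each, were THI + IMZ at 54 and 46 mg/kg bw/day, THI + CTD at 54 and 134 mg/kg bw/day, and IMZ + CTD at 46 and 135 mg/kg bw/day. Each library came from 1 rat, and the CTD group is smaller because the study lost animals at this dose. The libraries held in all 31.8 to 101 M counts (median 41 M), and the controls were deeper (median 60.5 M) than the treated rats (median 40.2 M). Levels are given as CPM, counts scaled to a common library total after TMM normalization, and are compared between groups for 1 gene but not between genes, since gene lengths of the build used were not available here. In whole liver, fewer cells of a type and less RNA per cell cannot be told apart. Hepatocyte markers summed to 160900 to 249800 CPM per rat, so the tissue carried the genes its label names.

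GSTs join the thiol of glutathione to electrophilic compounds, among them reactive products of drug metabolism and of lipid peroxidation. The cytosolic classes act as dimers, and the rat liver is rich in alpha and mu class enzymes. Many of their genes are known to be inducible by xenobiotics, through the constitutive androstane receptor (CAR), the pregnane X receptor (PXR), the aryl hydrocarbon receptor (AHR) and NRF2. NRF2 binds antioxidant response elements (AREs), and the AHR binds xenobiotic response elements (XREs). Gstp1 is known to be scarce in normal rat hepatocytes, to be present in bile duct cells, and to mark altered hepatocyte foci.

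Promoter sequences are shown for the members whose levels moved most and for Gstm2, the mu class neighbour of Gstm1 with a smaller change. They are the 250 bases before the RefSeq transcription start in GRCr8, a later build than the Rnor_5.0 used for mapping, read 5′ to 3′ on the gene's strand. Matching was by symbol and found 7 of the 9 members. Capitals mark 4 short motifs on either strand, namely the ARE core TGACNNNGC, the XRE core GCGTG, the nuclear receptor half-site AGGTCA and the TATA box TATAAA. RefSeq lists Gsta2 as an older name of another alpha class gene as well, so the Gsta2 sequence may not belong to the row counted as Gsta2.
Gstm1 promoter (chr2:198343384-198343633, minus strand): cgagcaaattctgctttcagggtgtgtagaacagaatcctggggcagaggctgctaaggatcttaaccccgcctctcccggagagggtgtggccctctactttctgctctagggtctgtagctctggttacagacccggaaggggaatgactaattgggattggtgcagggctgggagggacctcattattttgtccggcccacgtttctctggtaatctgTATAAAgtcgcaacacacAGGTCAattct
Gstm2 promoter (chr2:198316918-198317167, minus strand): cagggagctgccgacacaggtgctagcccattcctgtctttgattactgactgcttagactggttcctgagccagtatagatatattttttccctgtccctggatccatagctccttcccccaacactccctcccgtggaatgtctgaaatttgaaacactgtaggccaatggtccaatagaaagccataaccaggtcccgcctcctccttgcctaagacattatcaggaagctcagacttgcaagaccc
Gsta2 promoter (chr8:88077093-88077342, minus strand): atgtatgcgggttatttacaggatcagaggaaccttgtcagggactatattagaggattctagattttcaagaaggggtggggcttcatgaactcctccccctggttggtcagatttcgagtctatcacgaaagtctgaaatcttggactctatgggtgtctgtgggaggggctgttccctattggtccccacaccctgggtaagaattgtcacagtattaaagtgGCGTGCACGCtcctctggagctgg
Gstp1 promoter (chr1:210769706-210769955, minus strand): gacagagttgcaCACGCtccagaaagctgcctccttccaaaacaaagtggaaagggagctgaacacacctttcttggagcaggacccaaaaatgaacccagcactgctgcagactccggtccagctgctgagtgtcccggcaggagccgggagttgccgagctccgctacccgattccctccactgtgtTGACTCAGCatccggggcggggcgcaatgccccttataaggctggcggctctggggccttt

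In the Gstm1 promoter, TATAAA lay 29 to 24 bases and AGGTCA 11 to 6 bases before the start. The Gstm2 promoter held none of these motifs. The Gsta2 promoter held GCGTG at 24 to 20 bases and, on the other strand, at 19 to 15 bases before the start. The Gstp1 promoter held TGACTCAGC at 61 to 53 bases, where the ARE core overlaps the AP-1 site TGACTCA, and GCGTG on the other strand at 238 to 234 bases. Of all 33469 RefSeq windows of this length, 10.1% held the ARE core, 25.9% GCGTG, 14.1% AGGTCA, 12.9% TATAAA and 6.34% the AP-1 site TGANTCA, so each of these matches is common by itself. A match is a run of letters and says nothing of binding in these livers.

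The first question was which GST genes each compound or mixture moved against the vehicle. Gstm1 mRNA rose in all 6 treatments, 1.94- to 2.64-fold, and was the one member to pass the test in all of them. Gsta2 was called higher in THI, THI + IMZ and THI + CTD, and in IMZ by DESeq2 but not by edgeR. In THI + CTD 5 of 8 members were called, adding Gstm2, Gstt1 and Gstp1, but without rat 2 of this group Gstm1 alone was called. Gsta4, Gstk1 and Mgst1 passed the test in no treatment, and no member was called lower. Tests were the quasi-likelihood test of edgeR with Benjamini-Hochberg adjustment over all 19904 genes, and a gene was called at an adjusted p under 0.05.

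By treatment, 2 of the 8 members were called in THI (0.543% of all genes tested were called there), 1 in IMZ (0.251%), 1 in CTD (12.7%), 2 in THI + IMZ (1.18%), 5 in THI + CTD (4.39%) and 1 in IMZ + CTD (1.46%). Without THI + CTD rat 2 the count in THI + CTD was 1, below those in THI and THI + IMZ. In CTD, 1 of 8 is close to the share found among all genes. The members' median log2 fold change was 0.29 in THI, 0.16 in IMZ, 0.34 in CTD, 0.26 in THI + IMZ, 0.58 in THI + CTD and 0.32 in IMZ + CTD, beside -0.07 to -0.01 over all genes tested. The 6 comparisons share the same 8 controls and are therefore not independent of each other.

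**Figure D1:**
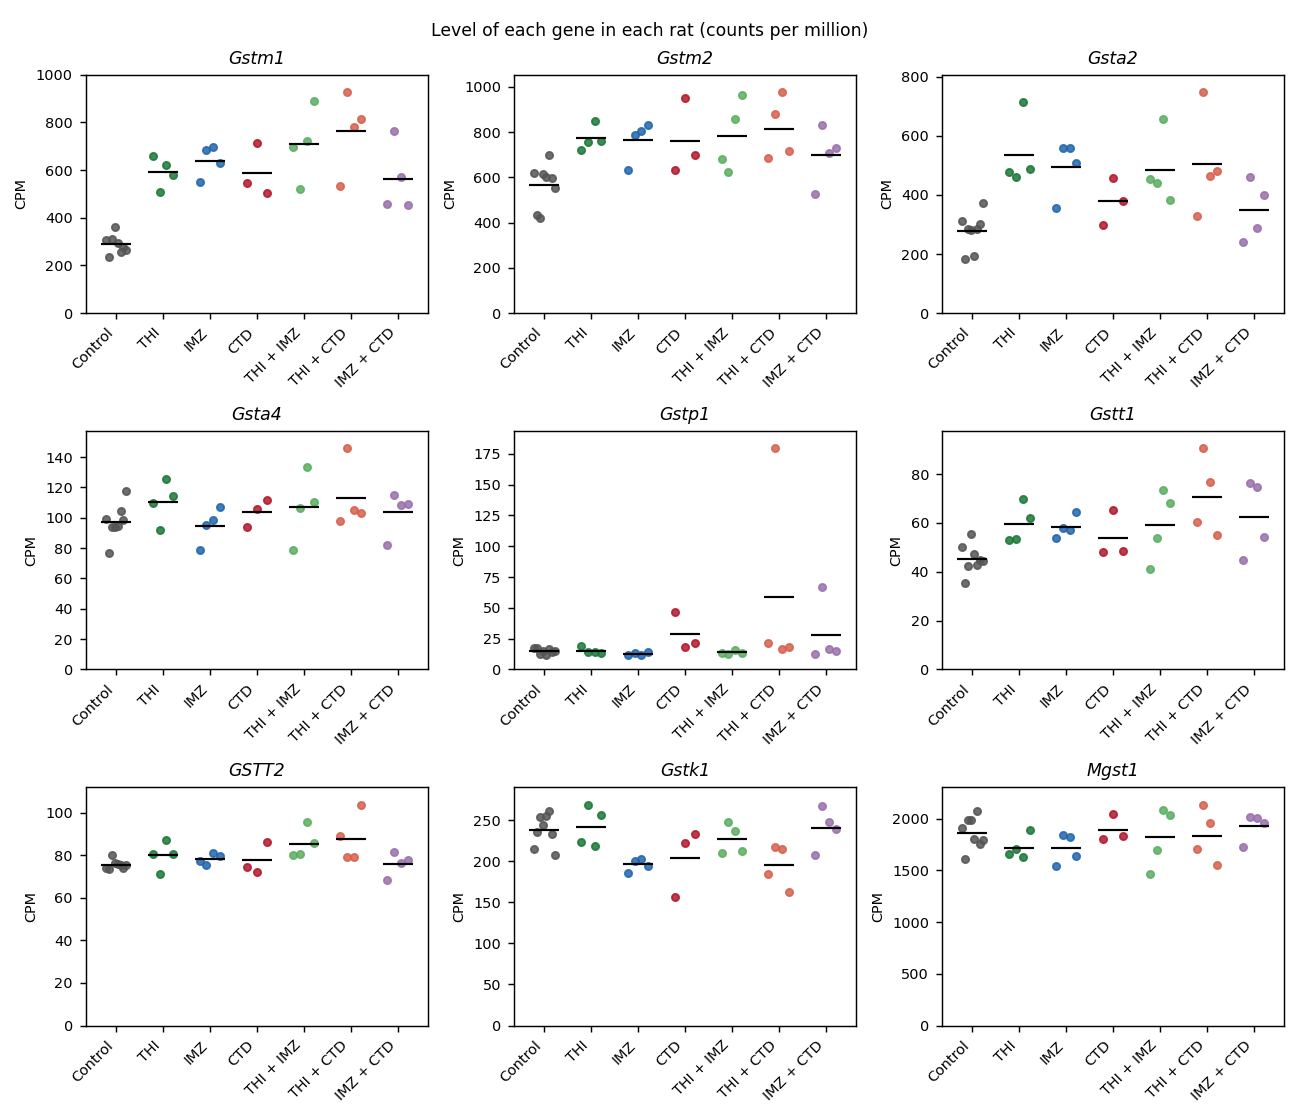
Level of each of the 8 members and of the row GSTT2 in every rat, in CPM on a linear axis, by group; points are rats and bars are group means. All 23 treated rats lie above all 8 controls for Gstm1 (453 to 927 against 238 to 362 CPM), while for Gstp1 single rats stand apart in CTD, THI + CTD and IMZ + CTD.

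Gstm1 (ENSRNOG00000029726), a mu class enzyme of the hepatocyte cytosol, lay between 238 and 362 CPM in the controls, with a median of 285. The THI rats had 657, 509, 619.9 and 579.6 CPM, the IMZ rats 550.5, 683, 699 and 629.6 CPM, and the CTD rats 546, 714 and 505 CPM. The mixtures reached 698, 521, 722 and 892 CPM in THI + IMZ, 534, 927, 779 and 814 CPM in THI + CTD, and 459, 762, 569 and 453 CPM in IMZ + CTD. The lowest treated rat, at 453 CPM, was above the highest control, at 362 CPM, so no treatment overlapped the controls. Groups that lie wholly above the controls are uncommon among all genes, at 0.734% in THI, 0.713% in IMZ, 5.33% in CTD, 0.794% in THI + IMZ, 2.14% in THI + CTD and 1.61% in IMZ + CTD.

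The log2 fold change of Gstm1 was 1.03 ± 0.14 (SE) in THI, 1.15 ± 0.14 in IMZ, 1.03 ± 0.15 in CTD, 1.29 ± 0.14 in THI + IMZ, 1.40 ± 0.14 in THI + CTD and 0.96 ± 0.14 in IMZ + CTD. These are changes of 1.94-fold (IMZ + CTD) to 2.64-fold (THI + CTD). The adjusted p by edgeR was 4.26e-05 in THI, 7.22e-06 in IMZ, 2.18e-05 in CTD, 8.91e-07 in THI + IMZ, 9.33e-08 in THI + CTD and 0.000393 in IMZ + CTD. In order of the mean, the groups ran from control over IMZ + CTD, CTD, THI, IMZ and THI + IMZ to THI + CTD, and apart from the step from control to IMZ + CTD, the ranges of neighbours in this order overlapped. Gstm1 was called in all 234 comparisons with control refitted under other settings or without 1 rat, with log2 fold changes between 0.77 and 1.54.

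Gstm2 (ENSRNOG00000019094), the second mu class member and a dimer partner of Gstm1, had smaller log2 fold changes. Its controls ran from 421 to 699.9 CPM (median 598). The THI rats had 723, 757, 851 and 759 CPM and did not overlap the controls, whereas THI + CTD, at 687, 879, 977 and 717 CPM, overlapped them in 1 rat. By edgeR it was called in THI + CTD alone, at a log2 fold change of 0.52 ± 0.14 and an adjusted p of 0.0218 by edgeR, and that call was lost without rat 2 (adjusted p = 0.0827) or rat 3 (0.149) of that group. In THI the log2 fold change was 0.45 ± 0.14 (adjusted p = 0.205), in IMZ 0.43 ± 0.14 (0.270), in CTD 0.42 ± 0.15 (0.0634), in THI + IMZ 0.46 ± 0.14 (0.105) and in IMZ + CTD 0.30 ± 0.14 (0.347), all by edgeR. DESeq2 called it in CTD (adjusted p = 0.0347) and THI + IMZ (0.0373) as well. Over the study, 16 of the 23 treated rats lay above all controls.

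The unequal change of the mu class genes is seen within each rat as the count of Gstm1 per count of Gstm2, a ratio not corrected for gene length. It was 0.369 to 0.743 in the controls, with a mean of 0.522 ± 0.110 (SD, n = 8). The treated means were 0.768 ± 0.101 in THI (SD, n = 4), 0.840 ± 0.055 in IMZ (SD, n = 4), 0.779 ± 0.075 in CTD (SD, n = 3), 0.905 ± 0.091 in THI + IMZ (SD, n = 4), 0.941 ± 0.181 in THI + CTD (SD, n = 4) and 0.803 ± 0.130 in IMZ + CTD (SD, n = 4). IMZ, THI + IMZ and THI + CTD lay wholly above the highest control, while THI, CTD and IMZ + CTD overlapped it. These ratios were not tested. Mu class genes are similar in sequence, and reads that matched several places were not counted, so both levels are uncertain where the genes are alike.

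**Figure D2:**
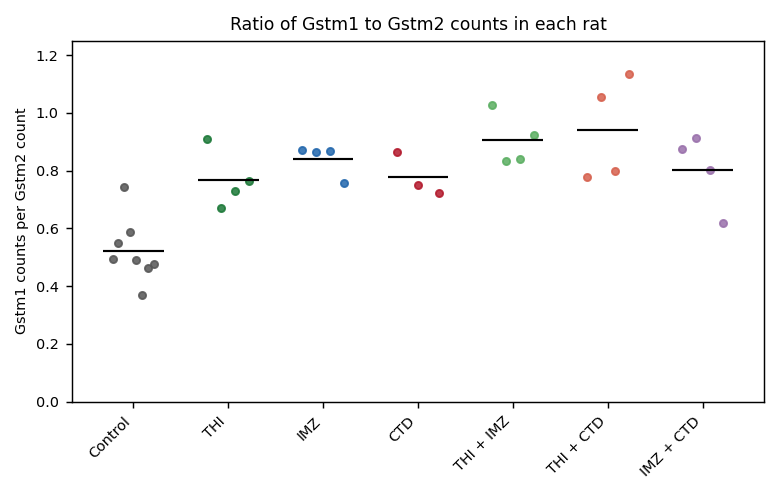
Count of Gstm1 divided by the count of Gstm2 in each rat (linear axis, no unit), by group; points are rats and bars are group means. The control points lie between 0.369 and 0.743, and the highest ratio, 1.136, belongs to a THI + CTD rat.

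Gsta2 (ENSRNOG00000000201) encodes an alpha class subunit, abundant in hepatocytes and active towards lipid hydroperoxides. Its controls ran from 184 to 374 CPM with a median of 284. The THI rats had 476, 460.4, 714 and 489 CPM, and the THI + IMZ rats 452, 439, 658 and 384 CPM, and neither group overlapped the controls. THI + CTD gave 329, 747, 464 and 482 CPM, with 1 rat within the control range. IMZ gave 357, 559, 558 and 508 CPM, CTD 298, 456 and 380.3 CPM, and IMZ + CTD 242, 460.1, 287 and 401 CPM, each with at least 1 rat within that range.

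The log2 fold change of Gsta2 was 0.95 ± 0.20 in THI (adjusted p = 0.0123), 0.81 ± 0.20 in THI + IMZ (0.0308) and 0.87 ± 0.20 in THI + CTD (0.00690), by edgeR. In IMZ it was 0.84 ± 0.20 and missed the threshold at an adjusted p of 0.0586, although the value is close to that in THI + IMZ. Gsta2 in IMZ was called in 11 of 39 other fits, among them DESeq2 (adjusted p = 0.00755). CTD, at 0.45 ± 0.22 (adjusted p = 0.189), and IMZ + CTD, at 0.33 ± 0.20 (0.514), were not called by edgeR. The THI call was lost without THI rat 3 (adjusted p = 0.116) and the THI + CTD call without rat 2 of that group (0.0916). The THI + IMZ call was lost without control rat 5 (0.0545), without rat 1 (0.0517) or rat 3 (0.201) of that group, and with a block for the replicate number (0.102). In all, 18 of 23 treated rats lay above all controls. Gsta2 has close copies among the alpha class genes, so its counts may be split with them.

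Gsta4 (ENSRNOG00000030449), the alpha class enzyme known for conjugating 4-hydroxynonenal, was called nowhere. Its controls ran from 77.1 to 117 CPM and the treated rats from 78.8 to 146 CPM, and 3 treated rats lay above all controls. The largest log2 fold change, in THI + CTD, was 0.21 ± 0.12 (adjusted p = 0.373 by edgeR).

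Gstp1 (ENSRNOG00000018237), the pi class gene, was low in most livers and very uneven in the groups that received CTD. Its controls ran from 12.0 to 17.6 CPM with a median of 14.9. The CTD rats had 46.8, 18.4 and 21.4 CPM, all above the controls. THI + CTD gave 21.5, 179, 16.6 and 17.97 CPM and IMZ + CTD 12.4, 66.7, 16.4 and 15.1 CPM, so in each mixture with CTD 1 rat stood far above the rest. Without CTD the levels stayed near the controls, with 13.5 to 19.05 CPM in THI, 11.7 to 13.8 CPM in IMZ and 12.3 to 15.7 CPM in THI + IMZ.

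Gstp1 was called in THI + CTD, at a log2 fold change of 1.97 ± 0.42 (adjusted p = 0.00497 by edgeR), but without rat 2 the value was 0.31 and the call was lost (adjusted p = 0.663). In CTD the log2 fold change was 0.94 ± 0.47 (adjusted p = 0.211 by edgeR), and in the fit without that same THI + CTD rat CTD passed with an adjusted p of 0.0341. Without CTD rat 1 the CTD value was 0.40 (adjusted p = 0.695). In IMZ + CTD it was 0.88 ± 0.43 (adjusted p = 0.394 by edgeR), with a sign change when rat 2 of that group was left out. DESeq2 gave no p for Gstp1.

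Bile duct cells are a known place of Gstp1 expression. The summed level of 8 cholangiocyte markers was 25.04 CPM in THI + CTD rat 2, the highest of the 31 rats, but 20.0 CPM in CTD rat 1 and 16.9 CPM in IMZ + CTD rat 2, within the 13.1 to 22.2 CPM of the controls. By edgeR 0 of the 8 were called in any treatment, with 1 at an unadjusted p under 0.05 in each group with CTD and 1 called by DESeq2 in CTD. The other 3 THI + CTD rats, with 16.6 to 21.5 CPM of Gstp1, had marker sums of 21.1 to 23.7 CPM. Of 10 markers of dividing cells, 10 were called higher in CTD, 9 in THI + CTD, 9 in IMZ + CTD, 8 in THI + IMZ and 0 in THI and in IMZ. Their sums were 181, 58.0 and 56.5 CPM in these same 3 rats, against 8.21 to 20.9 CPM in the controls. Some rats of the same groups with low Gstp1 had similar or higher sums. IMZ + CTD rats 3 and 4 had 87.5 and 63.7 CPM, and THI + CTD rats 3 and 1 had 59.1 and 53.0 CPM. Others had lower sums, with 64.7 and 48.6 CPM in CTD rats 2 and 3 against the 181 CPM of CTD rat 1. Lower than rat 2 of their group were THI + CTD rat 4 (21.01 CPM) and IMZ + CTD rat 1 (32.3 CPM). In THI + IMZ and IMZ, where Gstp1 stayed near the controls, the sums of these markers ran from 16.3 to 95.2 CPM and from 19.65 to 50.6 CPM. The part of either cell type in the Gstp1 levels was not tested. Red blood cell markers were also higher in CTD, with 3 of 3 called and sums of 65.2 to 77.2 CPM against 5.36 to 16.3 CPM in the controls, and 1 of 3 was called higher in THI + CTD, where rat 3 reached 75.8 CPM. Pancreas marker sums were lower in treated rats, with group medians of 77.6 to 133 CPM against 256 CPM in the controls, and all rats of THI, CTD, THI + IMZ and THI + CTD lay below the lowest control. Of the 4 pancreas markers, Prss1 was at 0 in every control, and 1 was called lower, in CTD and THI + CTD. In these 2 groups Prss1, Cela2a and Ctrb1 were at 0 in every rat, so the sums there were the level of Cpa1 alone. Of 8 hepatocyte markers, 2 were called lower in CTD and 1 in THI + CTD, and 1 higher in THI + IMZ. The part of these cells in the members' values was not tested.

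Gstt1 (ENSRNOG00000049771), a theta class enzyme that acts on small halogenated compounds, rose in THI + CTD. Its controls ran from 35.2 to 55.4 CPM with a median of 44.7. THI + CTD gave 60.2, 90.5, 76.6 and 55.0 CPM, with 3 of 4 rats above all controls, and a log2 fold change of 0.64 ± 0.15 (adjusted p = 0.00741 by edgeR). Without rat 2 of this group it was 0.50 and not called (adjusted p = 0.0749). The other treatments had log2 fold changes of 0.25 in CTD to 0.47 in IMZ + CTD, none of them called by edgeR. In IMZ + CTD it was called by DESeq2 (adjusted p = 0.0497) and by edgeR without rat 1 of that group (0.0287). In all, 13 of the 23 treated rats lay above all controls. The row spelled GSTT2 was between 73.4 and 79.8 CPM in the controls and was not called, with its largest log2 fold change of 0.22 ± 0.07 in THI + CTD (adjusted p = 0.0800 by edgeR).

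Gstk1 (ENSRNOG00000016484), located in mitochondria and peroxisomes, had log2 fold changes below 0 in 4 treatments, none of which passed the test. All 4 IMZ rats, at 186, 201, 203 and 195 CPM, lay below the lowest control at 208 CPM, a pattern found in 0.553% of all genes. The log2 fold change in IMZ was -0.28 ± 0.10, with a p of 0.00677 and an adjusted p of 0.330 by edgeR. In THI + CTD it was -0.29 ± 0.10 (adjusted p = 0.0835 by edgeR). That value was called by DESeq2 (adjusted p = 0.0348) and in the fit without CTD rat 1 (0.0433).

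Mgst1 (ENSRNOG00000007743), the trimeric enzyme of the endoplasmic reticulum and outer mitochondrial membrane, had the narrowest relative spread of the members over the 31 rats, from 1467 to 2137 CPM, a ratio of 1.46. Its log2 fold changes lay between -0.12 in IMZ and 0.05 in IMZ + CTD, with SEs of 0.09 to 0.10, and none was called. In IMZ the 95% interval of the log2 fold change, -0.32 to 0.07, leaves room for a fall to 0.803 of the control level but not for the change seen in Gstm1.

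**Figure D3:**
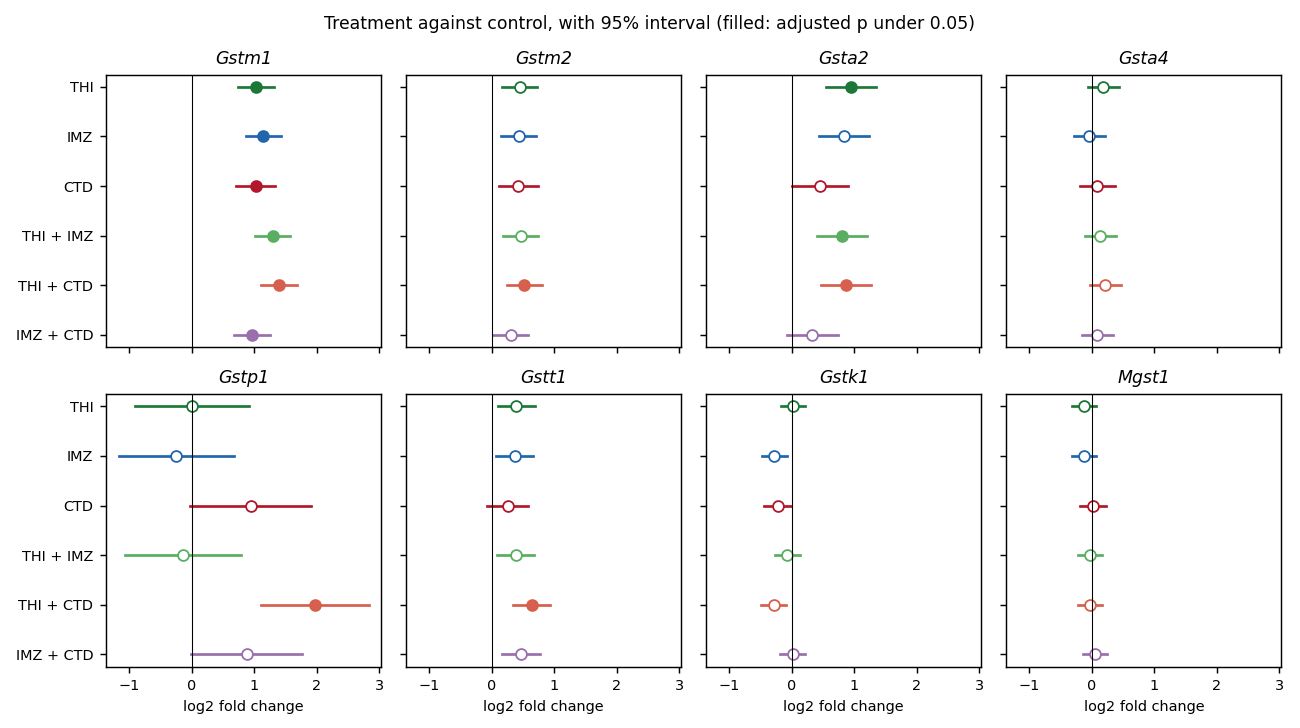
Log2 fold change against control of each member in the 6 treatments, with 95% intervals. Filled points are called at an adjusted p under 0.05. Gstm1 is filled in all 6 treatments (0.96 to 1.40), Gsta2 in 3, and Gstm2, Gstp1 and Gstt1 in THI + CTD alone, calls that were lost without rat 2 of that group.

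The second question was whether the members responded differently to the single compounds. The doses differed in mg/kg bw/day, so these are comparisons of the groups as dosed. Of the 8 members, 0 differed at an adjusted p under 0.05 by edgeR between THI and IMZ (0.01% of all genes called), between THI and CTD (6.62%) or between IMZ and CTD (4.67%). At an unadjusted p under 0.05, edgeR had 1 member in each pair and DESeq2 had 1, 2 and 0. For Gstm1 the log2 difference was -0.11 ± 0.17 between THI and IMZ, 0.01 ± 0.18 between THI and CTD and 0.12 ± 0.18 between IMZ and CTD, with 95% intervals that lie within -0.46 to 0.49. For Gstp1, IMZ was below CTD by a log2 difference of -1.19 ± 0.55 (adjusted p = 0.248 by edgeR), which passed without THI + CTD rat 2 (0.0459). For Gstk1, THI exceeded IMZ by 0.30 ± 0.11 (adjusted p = 0.853 by edgeR).

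The third question was whether a mixture departed from the dose-weighted sum of its compounds. The expected log2 fold change took 0.5 of the value in THI or IMZ and 0.47 of that in CTD. In each of the 3 mixtures 0 of the 8 members departed from this sum by edgeR. Of all genes, 0.0151% departed in THI + IMZ, 0.286% in THI + CTD and 1.16% in IMZ + CTD. DESeq2 called 0 as well. Without adjustment, a p under 0.05 was reached by 0, 3 and 1 members with either tool.

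For Gstm1 in THI + IMZ the log2 fold change exceeded the sum by 0.20 ± 0.14 (adjusted p = 0.870 by edgeR), in THI + CTD by 0.40 ± 0.15 (0.336), and in IMZ + CTD the difference was -0.10 ± 0.15 (0.878). The largest departure was that of Gstp1 in THI + CTD, 1.52 ± 0.44 above the sum (adjusted p = 0.165 by edgeR), and without rat 2 of that group its sign changed to -0.14. Gstt1 exceeded the sum by 0.32 ± 0.15 in THI + CTD (adjusted p = 0.485 by edgeR), and Gstk1 by 0.26 ± 0.10 in IMZ + CTD (0.196). These intervals do not show that the members follow the sum, only that no departure passed the test with 3 or 4 rats a group.

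**Figure D4:**
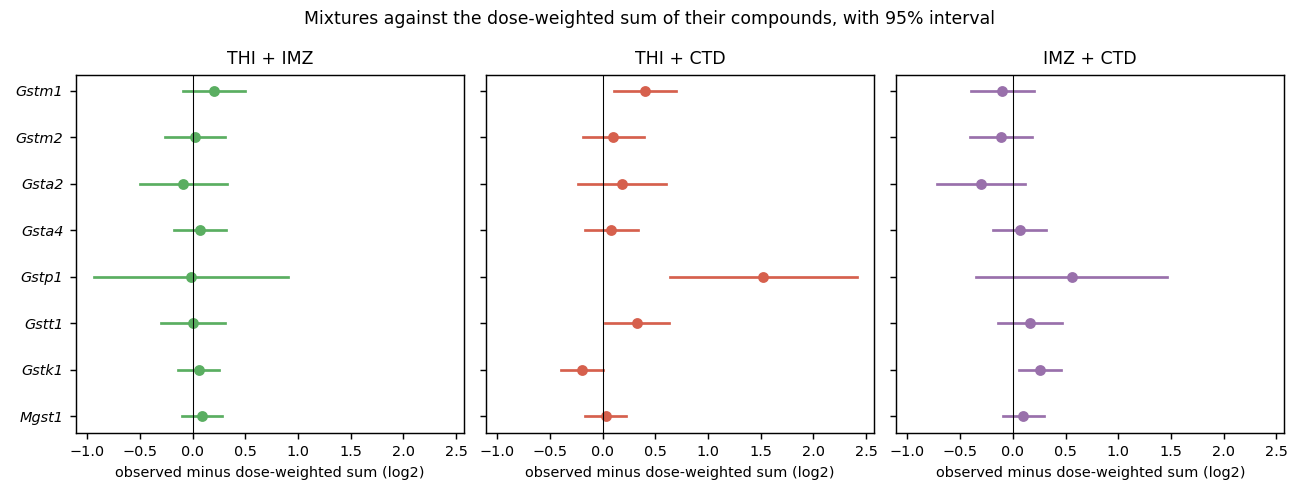
Observed minus expected log2 fold change of each member in the 3 mixtures, where the expected value is the dose-weighted sum of the single compounds; bars are 95% intervals. Most intervals include 0, and Gstp1 in THI + CTD lies farthest from it, at 1.52.

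For the members called in any treatment, the genes with the most similar pattern were ranked by Pearson's r of log2 CPM over the 31 rats, among 10970 genes. The rats share group differences and library depth, so r is a description and was not tested. Closest to Gstm1 were the conjugate exporter Abcc3 (r = 0.932), the glucuronosyltransferase Ugt1a2 (0.923) and the aldehyde dehydrogenase Aldh1a1 (0.921), with Spearman's rho of 0.847, 0.880 and 0.872. Closest to Gsta2 were the cytochrome P450 Cyp2b1 (r = 0.784), Aldh1a1 (0.780) and Ugt2b17 (0.773). Closest to Gstm2 were the microsomal Mgst2 (r = 0.832), Gsta3 and Aldh1a1 (0.824), and closest to Gstt1 were Gstt3 (0.852), Gstm2 (0.812) and Gna12 (0.788). For Gstp1 the leading genes were Ncapd3, Cfl2 and Mcm2 (r = 0.668, 0.662 and 0.659). Without the 2 rats with the highest Gstp1 these fell to 0.556, 0.412 and 0.644, and Spearman's rho of Ncapd3 was 0.366.

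The other genes around GSTs were taken from lists of the glutathione pathway. Over all lists there were 49 calls, of which 18 held in every other fit and 26 were lost on leaving out at least 1 rat. Of 13 further cytosolic GST genes tested, Gsta3, an alpha class gene, was called higher in all 6 treatments. It averaged 86.7 ± 28.3 CPM in the controls (SD, n = 8) and 213 ± 53 (IMZ + CTD) to 267 ± 31 CPM (THI + CTD, SD, n = 4), and its log2 fold changes ran from 1.30 in IMZ and IMZ + CTD to 1.62 in THI + CTD. The highest adjusted p of Gsta3 over these 6 comparisons and 39 other fits of each was 0.0211 by edgeR or DESeq2. Gstm3 was called higher in THI (log2 fold change 2.65), IMZ (3.36) and THI + IMZ (2.38) at levels of 0.0269 to 2.85 CPM against 0.0303 to 0.326 CPM in the controls, and its THI and THI + IMZ calls were lost in 10 and 24 of 39 other fits. In CTD, Hpgds, a prostaglandin D synthase of the sigma class, was called higher (0.51) and the omega class Gsto2 lower (-1.40). Gsto2 levels were very low, at 0.130 to 0.181 CPM in CTD against 0.299 to 0.624 CPM in the controls. Gsta1 in THI + CTD and Gstcd in CTD were also called higher, and kept their calls in 31 and 15 of 39 other fits. This gives 2, 2, 3, 2, 2 and 1 higher calls in THI, IMZ, CTD, THI + IMZ, THI + CTD and IMZ + CTD, and 1 lower call, in CTD. The median log2 fold change of these 13 genes was 0.00 to 0.17 by treatment. Of the 5 other membrane-bound genes of the MAPEG family, which share the fold of Mgst1, Mgst2 was called in THI + IMZ (0.65) and THI + CTD (0.63). The first call was lost without THI + IMZ rat 3 or 4, the second without THI + CTD rat 2 or 3. Mean Mgst2 was 60.7 CPM in the controls and 95.3 and 94.1 CPM in these mixtures. Without a call by edgeR it was 87.1 CPM in THI, 86.3 CPM in IMZ, 79.3 CPM in CTD and 86.4 CPM in IMZ + CTD.

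Of 14 genes of glutathione synthesis and recycling, 2 were called higher in THI, 2 in IMZ, 6 in CTD, 3 in THI + IMZ, 4 in THI + CTD and 0 in IMZ + CTD by edgeR, and none lower. In IMZ + CTD 5 had an unadjusted p under 0.05 and DESeq2 called 1. The list's median log2 fold change was 0.08 in IMZ + CTD to 0.30 in CTD, beside -0.03 and -0.07 over all genes. Gclm, the modifier subunit of the rate-limiting enzyme of glutathione synthesis, was called higher in 5 treatments. Its log2 fold change there ran from 0.45 in THI + IMZ to 1.04 in CTD. Gsr, glutathione reductase, was called higher in the same 5, by 0.40 to 0.59, and its IMZ call held in 31 of 39 other fits. In IMZ + CTD, without a call by edgeR, Gclm ran from 72.65 to 79.2 CPM against 57.3 to 70.1 CPM in the controls. Gsr there ran from 114 to 121 CPM against 86.5 to 105 CPM. In this mixture 1.61% of all genes lay wholly above the controls. The catalytic subunit Gclc was called higher in CTD (0.53) and THI + CTD (0.64), as was the glutaredoxin Glrx (0.58 and 0.43). Mean Gclc was 89.6 CPM in the controls, 129 CPM in CTD and 139 CPM in THI + CTD. It was also 132 CPM in THI, 128 CPM in IMZ and 120 CPM in THI + IMZ, without a call by edgeR. In IMZ + CTD it was 93.5 CPM. Of 3 glutathione peroxidases tested, Gpx1 fell in CTD (-0.53) and THI + CTD (-0.54). Of 10 genes of mercapturate formation, which process the conjugates further, 1 passed, the aminopeptidase Anpep, lower in CTD (-0.69). Set against the 12.7% of all genes called in CTD, the CTD calls were 6 of 14 in synthesis and recycling, 4 of 13 in the further cytosolic GSTs and 1 of 10 in mercapturate formation, and the last is no more than that share. Leaving out CTD rat 1 ended the CTD calls of Gclc, Gpx1 and Anpep, as well as those of Gsto2 and Hpgds. Leaving out THI + CTD rat 3 ended the calls of Gclc, Glrx and Gpx1 in that mixture.

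Of 5 genes that export glutathione conjugates, Abcc3, a transporter of the sinusoidal membrane, rose in all 6 treatments, with log2 fold changes of 1.65 in IMZ + CTD to 2.82 in THI + CTD. Its controls ran from 6.97 to 25.2 CPM and its treated rats from 28.2 to 103 CPM, without overlap. The other export genes tested were called in no treatment by edgeR. The list's median log2 fold change was -0.10 in THI + IMZ to 0.23 in CTD. Of 12 regulators of GST genes, Nr1i3, which encodes CAR, was called higher in CTD (1.10), THI + IMZ (1.24) and THI + CTD (1.37), and its CTD call was lost without CTD rat 2 or 3. In CTD, Rxra (-0.34), the partner of CAR and PXR, and Arnt (-0.42), the partner of the AHR, were called lower, and both calls were lost without CTD rat 1. With Nr1i3 this is 3 of 12 regulators called in CTD, beside 12.7% of all genes. The remaining calls were Mafg and Mafk (0.38), partners of NRF2, higher in THI + IMZ, and Nr1i2, which encodes PXR, lower in IMZ + CTD (-0.37). Mafg and Mafk each lost the call without THI + IMZ rat 1, 3 or 4. Nr1i2 lost it without IMZ + CTD rat 2, 3 or 4, or control rat 4, 5 or 7.

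**Figure D5:**
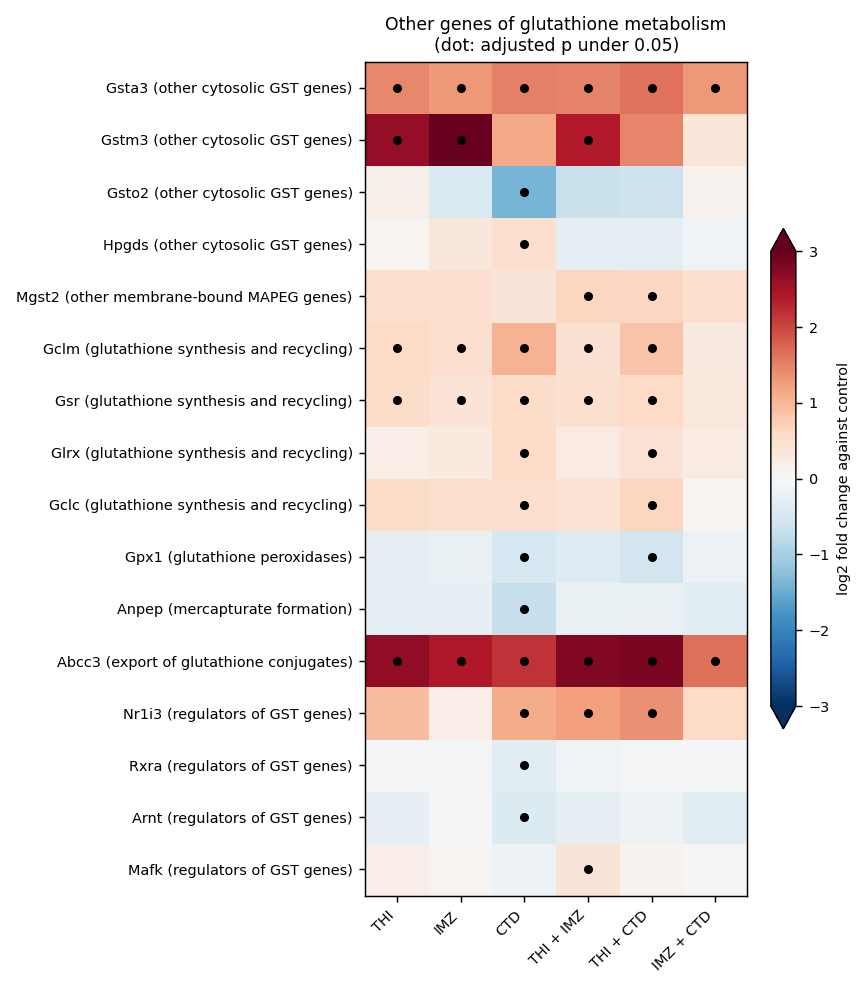
Log2 fold change against control (colour) of the named pathway genes, list in parentheses, in the 6 treatments; a dot marks an adjusted p under 0.05. Gsta3 and Abcc3 carry a dot in all 6 columns.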

How the data were processed

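Liver RNA of 31 rats was sequenced from a stranded total RNA kit, 1 library per rat. The authors trimmed adapters with Skewer, checked quality with FastQC 0.11.5, and mapped and counted reads per gene with STAR 2.5.2b on Rnor_5.0. The annotation release and strand setting are not given in the sources used here. The deposited counts are whole reads per gene for 26312 genes. A further deposited file gives a normalized signal for 19904 genes, which equals each count over the DESeq2 size factor of its library (submitters' version 1.15.1), and it served only as a check.

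Counts of genes with a sum of at least 2 were analysed with edgeR 4.0.16 in R 4.3.3 (TMM, 1 model with 7 group means, quasi-likelihood test, Benjamini-Hochberg over all genes, threshold 0.05). SEs were derived from the fold change and F. The p-values weigh a difference of group means against the spread between rats, estimated from all 7 groups together. Levels for correlations used a prior count of 2. The steps were tested on simulated data. Promoters came from RefSeq GRCr8, by symbol.

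Members and lists were chosen with earlier results of these data known. The text names all members and, per list, up to 4 called genes by smallest adjusted p. The names given beyond these (Gsta1, Gstcd, Mafg, Nr1i2) were chosen after their values were seen. Results for some single list genes are not reported here, and the list counts leave them out. Genes most like a member are the 3 with the highest r.

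Alternatives were DESeq2 1.42.0 (Wald test, and its size factors in edgeR), filterByExpr, no filter, the newer quasi-likelihood method, a replicate block, thinning to the smallest library, only the groups compared, exact dose weights, and leaving out each rat. Counting GSTT2 with the members was added after seeing the data.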

Additional observations from a re-analysis of the deposited data

Results flagged for a closer look

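Each group of 4 to 10 rats was searched, per gene, for a rat far from the others by Dixon's criterion, which chance meets in about 1 of 20 groups. Of 54 groups, 5 had such a rat. Gstp1 gave 3 of them, at 179.5 CPM in THI + CTD rat 2, 66.68 CPM in IMZ + CTD rat 2 and 19.05 CPM in THI rat 1, each the highest of its group. Gsta2 had 714.2 CPM in THI rat 3. Gsta4 had 145.7 CPM in THI + CTD rat 2, the rat with the highest Gstp1, Gstm1, Gsta2 and Gstt1 of its group.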

How the results depend on the processing

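Gstm1 stayed called in all 234 refitted comparisons with control, with a highest adjusted p of 0.0243 by edgeR or DESeq2. The number of members called moved in IMZ to 2 with DESeq2, without a filter and with only the groups compared (Gsta2 added), and in CTD to 2 with DESeq2, filterByExpr and the replicate block (Gstm2 added) and with only the groups compared (Gstp1 added). It moved in IMZ + CTD to 2 with DESeq2 (Gstt1 added), and in THI + IMZ DESeq2 gave 3 (Gstm2 added). With the replicate block it was 1 in THI + IMZ (Gsta2 lost) and 3 in THI + CTD (Gstp1 and Gstt1 lost). A check of the numbers gave no clear pairing of the rats. In 0 of 21 pairs of groups was every same-number correlation above 0.1 (-0.28 to 0.399), and 7 of 23 treated rats correlated best with their own number. Such a bar cannot exclude a weak or partial pairing. The mean same-number correlation was highest between THI and THI + IMZ, at 0.188 against -0.0625 for other numbers. Thinning to the smallest library, DESeq2 size factors, the newer method, exact dose weights and counting GSTT2 left every such count within 1.5 times its value. DESeq2 gave no p for Gstp1. Leaving out 1 rat gave 1 to 2 members in THI, IMZ, CTD, THI + IMZ and IMZ + CTD, 1 to 6 in THI + CTD, and 0 to 1 between IMZ and CTD. THI + CTD fell to 1 (Gstm1) without its rat 2, and IMZ rose to 2 (Gsta2) without any of 8 rats, among them control rat 8 and IMZ rat 1. Gstm2 was added in CTD without control rat 6 or CTD rat 1, and Gstt1 in IMZ + CTD without rat 1 of that group.

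Over all members, comparisons and settings, 97 refitted values changed sign, none of them past the threshold in the main fit. With the replicate block, Gstp1 in THI was -0.026, Gsta4 in IMZ 0.043, Gstp1 and Gstt1 against the sum in THI + IMZ 0.013 and -0.011, Gstm1 and Gstm2 in THI minus CTD -0.0041 and -0.0012, and Gstm2 in IMZ minus CTD -0.024. With thinning, Gstp1 in THI was -0.0014 and Gstt1 against the sum in THI + IMZ -0.0012. The causes were not tested. Leaving out 1 rat changed the sign against control of Gstp1 in THI (-0.12 to 0.059), Gstk1 in THI (-0.039 to 0.067), Gsta4 in IMZ (-0.10 to 0.041), Mgst1 in CTD (-0.038 to 0.055), Mgst1 in THI + IMZ (-0.10 to 0.057), Mgst1 in THI + CTD (-0.10 to 0.048), Gstp1 in IMZ + CTD (-0.043 to 1.12) and Gstk1 in IMZ + CTD (-0.044 to 0.077). Against the dose-weighted sum it changed that of Gsta2 in THI + IMZ (-0.27 to 0.0058), Gsta4 in THI + IMZ (-0.046 to 0.19), Gstm2 in THI + IMZ (-0.091 to 0.12), Gstp1 in THI + IMZ (-0.085 to 0.045), Gstt1 in THI + IMZ (-0.11 to 0.14), Gsta2 in THI + CTD (-0.067 to 0.34), Gsta4 in THI + CTD (-0.067 to 0.14), Gstp1 in THI + CTD (-0.14 to 1.83), Mgst1 in THI + CTD (-0.053 to 0.10), Gstm2 in IMZ + CTD (-0.21 to 0.0036) and Gstp1 in IMZ + CTD (-0.37 to 0.81). Between compounds it changed that of Gsta2 for THI minus IMZ (-0.064 to 0.17), Gstm2 for THI minus IMZ (-0.068 to 0.058), Gstt1 for THI minus IMZ (-0.059 to 0.081), Mgst1 for THI minus IMZ (-0.045 to 0.041), Gstm1 for THI minus CTD (-0.091 to 0.17), Gstm2 for THI minus CTD (-0.095 to 0.22), Gstm2 for IMZ minus CTD (-0.11 to 0.20) and Gstk1 for IMZ minus CTD (-0.22 to 0.050).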

Other observations

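Together the 8 members held 0.335% ± 0.029 of all counts in the controls (SD, n = 8), 0.398% ± 0.018 in THI (SD, n = 4), 0.414% ± 0.022 in IMZ (SD, n = 4), 0.415% ± 0.040 in CTD (SD, n = 3), 0.412% ± 0.067 in THI + IMZ (SD, n = 4), 0.448% ± 0.070 in THI + CTD (SD, n = 4) and 0.383% ± 0.044 in IMZ + CTD (SD, n = 4). The share was lowest at 0.286% in a control and highest at 0.536% in a THI + CTD rat. No test was run on these shares.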
